A study of Homo sapiens with 6 samples.

Results

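Cholesterol and fatty acid synthesis was examined through 38 genes, which comprise 18 enzymes of sterol synthesis, 6 genes that regulate the pathway or carry sterols, and 14 genes of fatty acid synthesis, desaturation, elongation and activation. The genes were taken as a list of symbols and mapped to Ensembl gene IDs, and all 38 had a row among the 16922 genes measured and passed the filter on low values. RNA of 786-O FOXD1null, whose genotype is given as FOXD1 null, and of 786-O, its parental line, was sequenced in 3 libraries per line from untreated plates at 70% confluency. 786-O is an established human clear cell renal cell carcinoma line. FOXD1 is a forkhead transcription factor. The sources used here do not say whether 786-O FOXD1null is 1 clone. The libraries are described as biological triplicates, and nothing says that they came from separate cultures, so p-values measure the spread between these extracts.

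The values are normalized counts, which are reads per gene divided by a factor per library, and the reads recovered from them came to between 30982463 and 37843830 per library. FOXD1, the targeted gene, had 1277, 1048 and 901 normalized counts in libraries labelled FOXD1null, against 432, 498 and 480.2 in the 786-O libraries (log2 fold change 1.18 ± 0.13 (SE), adjusted p = 0.000385 by limma). FOXD1 RNA was thus higher in every library labelled FOXD1null, and whether the transcript encodes protein was not measured. FOXD1null is therefore used as the label of these libraries, and every direction rests on that label. Of 10 markers of the labelled cell type 9 had a row. The renal markers PAX8 and PAX2 were present in all 6 libraries, CA9 had no row, and NDUFA4L2 lay between 18.4 and 48.0. VEGFA (log2 fold change 1.39), EGLN3 (1.01), VIM (0.47) and PAX8 (0.26) were higher in every library labelled FOXD1null. LHX1 (-1.03) and PAX2 (-0.35) were lower in each, and the groups overlapped for KRT8 and KRT18. VIM carried most of the sums, which lay between 213660 and 231677 in libraries labelled FOXD1null, against 157653 to 163168 in 786-O. Libraries also stood apart. FOXD1null replicate 1 lay between the lines for CDH11 (155, 1.01 and 0.971 in libraries labelled FOXD1null, against 675, 646 and 702 in 786-O), and LEF1 and ANPEP had the same order. 786-O replicate 2, and to a lesser extent FOXD1null replicate 1, held cardiomyocyte markers: the 6 of 10 with a row summed to 425, 3.03 and 2.91 in libraries labelled FOXD1null, against 2.23, 4799 and 62.6 in 786-O. Of 10 hepatocyte markers 5 had a row, and SERPINA1 carried most of their sums, which lay between 8256 and 9030 in libraries labelled FOXD1null, against 2688 to 4034 in 786-O, while ALB was highest, at 138.7, in 786-O replicate 2. For adipocytes 2 of 8 markers had a row (sums of 215.6 to 242.5 in libraries labelled FOXD1null, against 162.3 to 232.7 in 786-O), for leukocytes 1 of 8 (24.8 to 29.3 in libraries labelled FOXD1null, against 21.2 to 31.7 in 786-O), for fibroblasts 4 of 7 (283.6 to 436.5 in libraries labelled FOXD1null, against 749.7 to 897.5 in 786-O), and for endothelial cells none of 6.

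Sterols and fatty acids are both built from cytosolic acetyl-CoA. The transcription factors SREBP-1 and SREBP-2, encoded by SREBF1 and SREBF2, switch on the enzymes of both branches. Their precursors are held in the endoplasmic reticulum by SCAP and the INSIG proteins when sterols are plentiful, and are cut and released when sterols are scarce. SREBP-2 acts mainly on sterol genes and SREBP-1c mainly on fatty acid genes, and both work at promoters together with NF-Y, which binds a CCAAT box. Clear cell renal carcinoma is known for its stores of cholesterol esters and triglycerides.

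Promoter sequences are shown because they bear on members that the results turn on. RefSeq promoters (GRCh38.p14), each 250 bases before to 50 after a start, were matched by symbol for 34 of the 38 genes, with 51 promoters in all. ACAT2, FDFT1, SQLE and FASN had no entry. Each promoter was searched on both strands for the NF-Y box CCAAT, the SREBP site TCACNCCAC, the E-box CACGTG and the forkhead core GTAAACA, none of which overlap each other where they are printed. Capitals mark the matches, and a box on the other strand reads ATTGG. Only bases before the start that lie in no exon of GENCODE 44 are printed, except that SREBF2 and ACSL1 are shown as 30 bases around their SREBP site, which lies in an annotated exon. The windows are MSMO1 at chr4:165327419-165327666, plus strand, HMGCS1 at chr5:43313513-43313662, minus strand, SREBF2 at chr22:41832962-41832991, plus strand, ACSL1 at chr4:184805774-184805803, minus strand, and ELOVL6 at chr4:110198654-110198841, minus strand.
MSMO1: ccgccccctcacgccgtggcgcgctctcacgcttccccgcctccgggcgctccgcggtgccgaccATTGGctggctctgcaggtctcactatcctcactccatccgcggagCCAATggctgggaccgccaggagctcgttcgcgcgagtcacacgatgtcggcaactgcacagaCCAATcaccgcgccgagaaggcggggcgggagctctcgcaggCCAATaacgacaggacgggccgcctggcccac
HMGCS1: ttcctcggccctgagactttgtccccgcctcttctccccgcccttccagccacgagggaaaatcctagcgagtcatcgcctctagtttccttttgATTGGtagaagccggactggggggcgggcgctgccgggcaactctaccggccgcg
SREBF2: tgacgcgccaTCACCCCACgcaccgcttcg
ACSL1: gtggagcaGTGGGGTGActttgctgctggc
ELOVL6: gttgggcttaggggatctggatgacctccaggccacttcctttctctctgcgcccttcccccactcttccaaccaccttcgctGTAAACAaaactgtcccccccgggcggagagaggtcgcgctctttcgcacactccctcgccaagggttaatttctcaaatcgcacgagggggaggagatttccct
MSMO1 held 4 NF-Y boxes, at 185, 139, 76 and 34 bases before the start. The box printed for HMGCS1, 1 of 2 in its window, lay 155 bases before the start, the SREBP site of SREBF2 133 bases, that of ACSL1 242 bases before 1 of its 5 starts, and the forkhead core of ELOVL6 143 bases.

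An NF-Y box was found in 26 of the 34 genes (76.5%), against 39.7% of the 27305 genes in the promoter table and 42.9% of the 11416 tested genes matched to it. A gene with several starts counts here if any of its promoters holds a match. Counted by promoter, 58.8% of the members' 51 held one, against 34.6% of all 35116. The SREBP site was found in 2 genes, ACSL1 and SREBF2 (5.88%, against 1.39% of all genes and 1.52% of tested genes). The E-box was found in 5 (14.7%, against 8.77% of all genes and 12.3% of tested genes). The forkhead core was found in ELOVL6 alone (2.94%, against 4.19% of all genes and 3.66% of tested genes). Members of each direction held NF-Y boxes: 5 of the 8 with an entry that were higher in libraries labelled FOXD1null, 7 of 10 that were lower and 14 of 16 that were not called. A match is a run of letters and not a measured binding site.

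Across the 38 genes, 8 were higher and 12 lower in libraries labelled FOXD1null, and 18 were not called, by limma on log2(normalized count + 1) at a Benjamini-Hochberg adjusted p of 0.05 or less over 16901 genes. This was 52.6% of the members, against 33.4% of all genes tested, of which 16.3% were higher and 17.1% lower. Most members are abundant: among the 32 with a mean of at least 1000, 16 were called, against 37.3% of all genes with such a mean, a cutoff chosen after the values were seen. The groups did not overlap in 28 of the 38, against 49.0% of all genes. The median log2 fold change was 0.010 over the members and -0.0073 over all genes, so the members were spread over both directions. In bulk RNA, fewer cells that express a gene and less RNA per cell cannot be told apart.

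**Figure D1:**
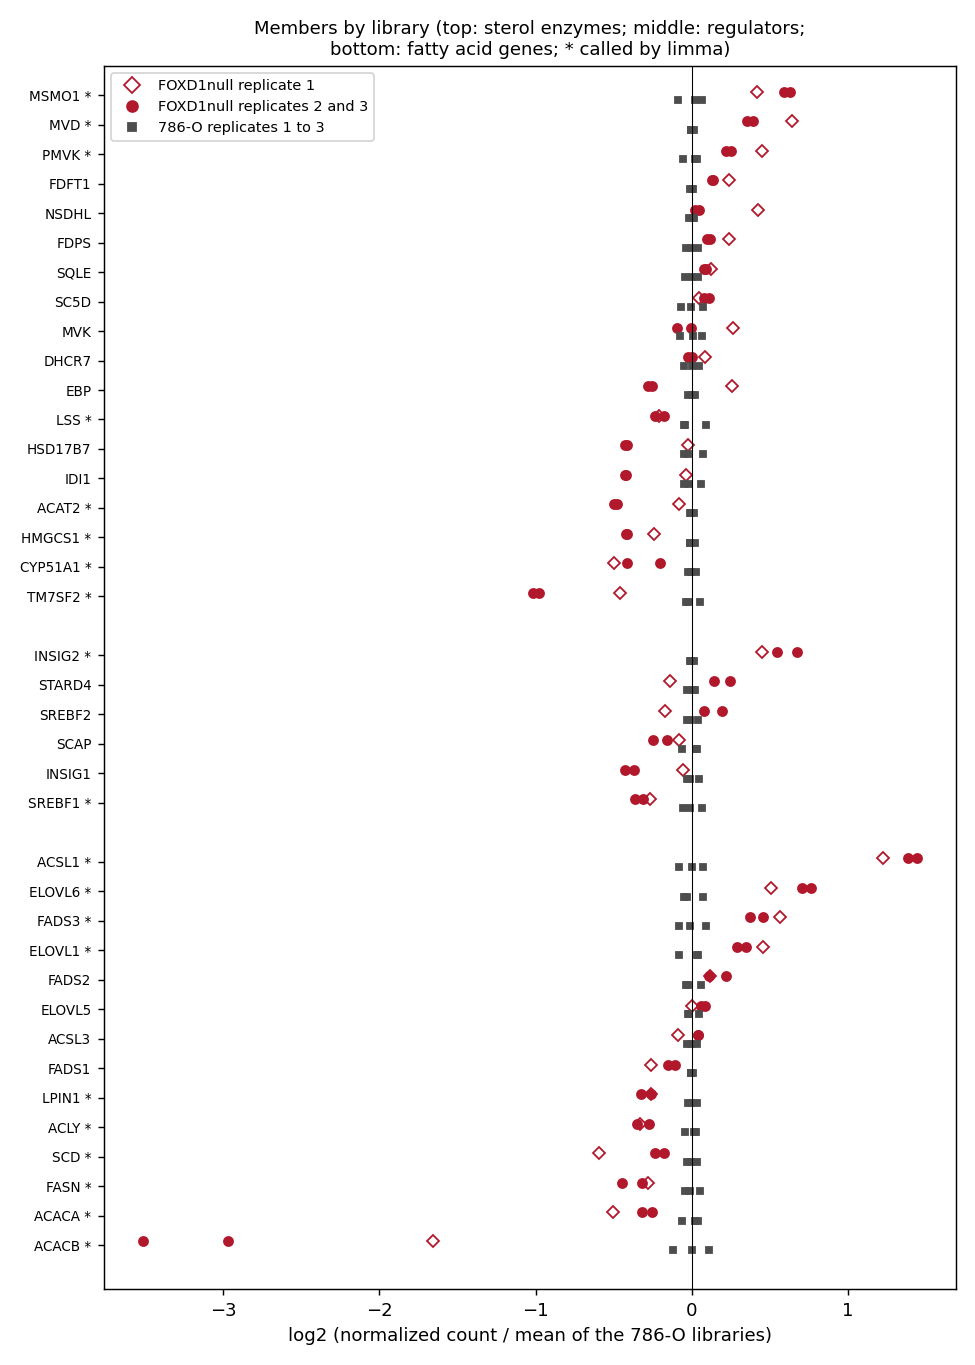
Each row is 1 of the 38 genes and each point 1 library, on the x axis as the log2 ratio of its normalized count to the mean of the 3 786-O libraries. Red diamonds and circles are FOXD1null, grey squares are 786-O, and asterisks mark the 20 genes called by limma. The 786-O libraries lie close together in nearly every row, ACSL1 and ACACB lie farthest out, and the open diamond of FOXD1null replicate 1 stands to the right of replicates 2 and 3 in 14 of the 18 sterol enzymes.

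Of the 18 sterol synthesis enzymes, 3 were higher in libraries labelled FOXD1null (PMVK, MVD and MSMO1), 5 were lower (HMGCS1, ACAT2, LSS, CYP51A1 and TM7SF2) and 10 were not called. The share called was 44.4%, against 33.4% of all genes tested, and the log2 fold changes of the 18 had a median of 0.038. The largest differences of the 18 lay in the last part of the pathway, where lanosterol is turned into cholesterol. MSMO1, the sterol-C4-methyl oxidase (chr4:165327667-165343164, hg38), had 7200.3, 8113 and 8326 normalized counts in libraries labelled FOXD1null, against 5053, 5639 and 5457 in 786-O (log2 fold change 0.55 ± 0.08 (SE), adjusted p = 0.00124). Every library labelled FOXD1null was above every 786-O library, with replicate 1 the lowest of the 3. TM7SF2, a sterol C14-reductase (chr11:65111845-65116384), had 124, 86.9 and 84.5 in libraries labelled FOXD1null, against 166, 169 and 178 in 786-O (log2 fold change -0.81 ± 0.16 (SE), adjusted p = 0.0066). The groups again did not overlap, here in the other direction, and replicate 1 stood between the 786-O libraries and the other libraries labelled FOXD1null. TM7SF2 is the least abundant of the 18, at 28.9 in FOXD1null and 50.1 in 786-O per kilobase of exon, while MSMO1 stood at 2763 in FOXD1null and 1887 in 786-O.

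At the head of the branch, HMGCS1, which makes HMG-CoA (chr5:43287470-43313512), had 8481, 7494 and 7532 normalized counts in libraries labelled FOXD1null, against 9938, 10194 and 9976 in 786-O (log2 fold change -0.36 ± 0.07 (SE), adjusted p = 0.00486). All libraries labelled FOXD1null were below all 786-O libraries, and the mean in libraries labelled FOXD1null was 78.1% of that in 786-O. ACAT2, the cytosolic thiolase before it, differed by about as much on the log2 scale (-0.35, adjusted p = 0.039), at 3142, 2356 and 2393 in libraries labelled FOXD1null, against 3309, 3364 and 3311 in 786-O, and FOXD1null replicate 1 came close to the 786-O libraries. ACAT2 shares 454 bases of exon with TCP1 on the opposite strand. TCP1 did not pass the test (-0.044), and since the sources used here do not give the strand setting of the counting, reads of the 2 genes may not be separate. The same limit applies to HMGCS1. It shares 2497 bases, 37.7% of its exons, with ENSG00000261604 on the opposite strand, a gene with a mean of 34.2 normalized counts.

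The 2 enzymes that follow mevalonate kinase were higher in libraries labelled FOXD1null. PMVK, phosphomevalonate kinase, had 1597, 1392 and 1365 in libraries labelled FOXD1null, against 1126, 1188 and 1199 in 786-O (log2 fold change 0.31 ± 0.08 (SE), adjusted p = 0.0207). MVD, which decarboxylates mevalonate diphosphate, had 5481, 4608 and 4473 in libraries labelled FOXD1null, against 3534, 3490.3 and 3493 in 786-O (log2 fold change 0.46 ± 0.08 (SE), adjusted p = 0.00407), with no overlap. In both genes replicate 1 was the highest library of all. MVK itself had 1192, 993 and 930.3 in libraries labelled FOXD1null, against 1042, 943 and 999 in 786-O, and was not called (log2 difference 0.055, adjusted p = 0.722). HMGCS1 and MVD, both known as SREBP targets, were called in opposite directions in the same libraries.

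From isopentenyl diphosphate to squalene epoxide, no gene was called. The log2 fold change of IDI1, the isomerase, was -0.30, adjusted p = 0.0672, of FDPS, farnesyl diphosphate synthase, 0.15, adjusted p = 0.11, of FDFT1, squalene synthase, 0.17, adjusted p = 0.0634, and of SQLE, squalene epoxidase, 0.10, adjusted p = 0.225. The groups did not overlap for FDPS, FDFT1 and SQLE, each higher in all 3 libraries labelled FOXD1null. LSS, lanosterol synthase, had 4342, 4444 and 4270.0 in libraries labelled FOXD1null, against 5352, 4855 and 4886 in 786-O (log2 fold change -0.21 ± 0.06 (SE), adjusted p = 0.0383). CYP51A1, lanosterol 14-alpha-demethylase, had 458, 564 and 487 in libraries labelled FOXD1null, against 636, 646 and 661 in 786-O (log2 fold change -0.37 ± 0.10 (SE), adjusted p = 0.0181). Both were lower in every library labelled FOXD1null. FDPS, IDI1, CYP51A1 and HSD17B7 have from 3 to 8 named pseudogenes each. For HSD17B7 1 of these had a row, and for the other genes 0. SCD, of the fatty acid genes, has 1, which had a row. The study's methods speak of uniquely mapped reads, so reads shared with a pseudogene may be missing from the counts.

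The late enzymes NSDHL (0.16, adjusted p = 0.29), HSD17B7 (-0.29, adjusted p = 0.0977), EBP (-0.092, adjusted p = 0.642), SC5D (0.077, adjusted p = 0.449) and DHCR7 (0.022, adjusted p = 0.825) were not called. Their 95% intervals show how large a difference these data allow. That of DHCR7, the final reductase of 1 route to cholesterol, ran from -0.12 to 0.16 on the log2 scale, and that of EBP, the sterol isomerase, from -0.40 to 0.21. EBP had 5000.3, 3513 and 3458 in libraries labelled FOXD1null, against 4199.5, 4245 and 4129 in 786-O. Its FOXD1null replicate 1 was above every other library and its replicates 2 and 3 were below every 786-O library, so the line split around the parental level.

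**Figure D2:**
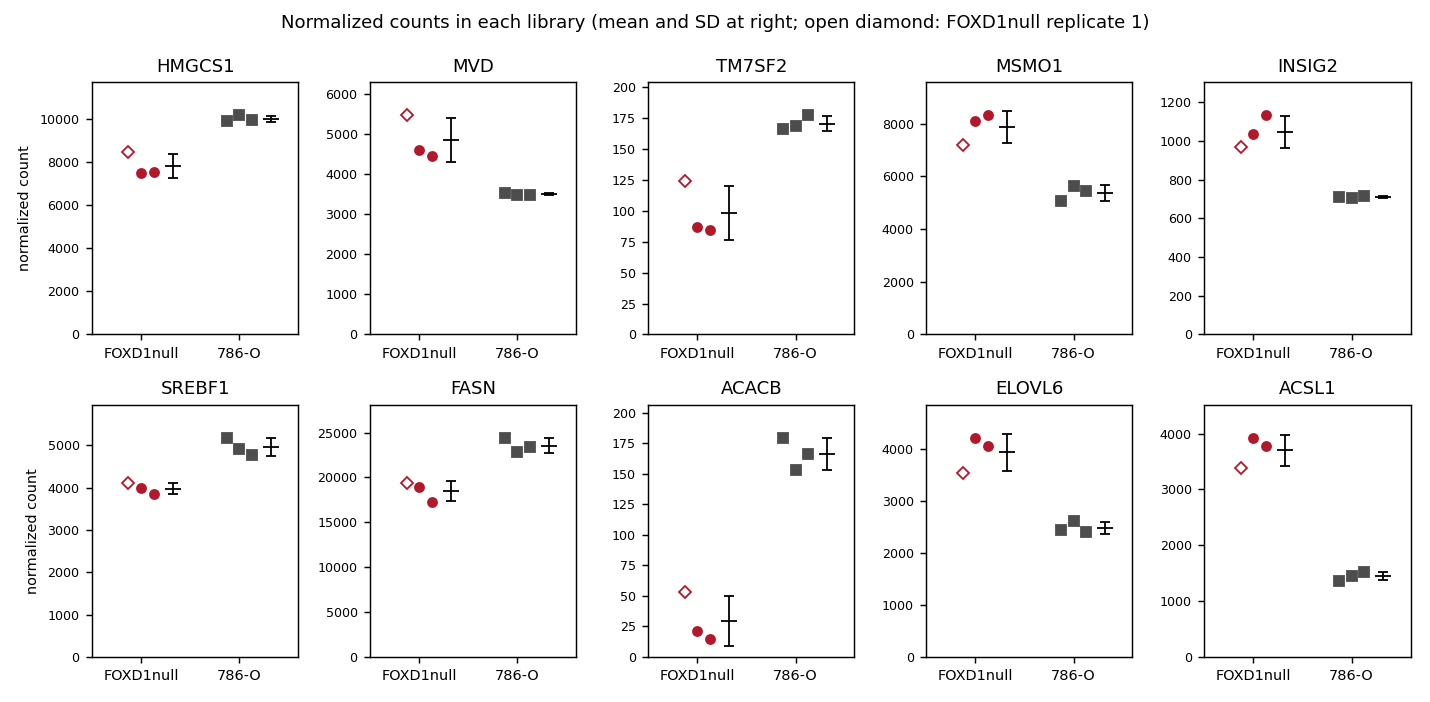
Normalized counts per library (y axis, from 0) of 10 members, for FOXD1null on the left and 786-O on the right of each panel, with the mean and SD (n = 3) beside the points. HMGCS1, TM7SF2, SREBF1, FASN and ACACB are lower in all 3 libraries labelled FOXD1null, and MVD, MSMO1, INSIG2, ELOVL6 and ACSL1 are higher in all 3. For ACACB the open diamond, FOXD1null replicate 1, lies at 52.8, above 21.2 and 14.6.

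Among the regulators, INSIG2 was higher and SREBF1 lower in libraries labelled FOXD1null, and the other 4 were not called. The share called, 33.3%, was that of all genes tested (33.4%). INSIG2 (chr2:118088452-118110997) holds the SCAP-SREBP complex in the endoplasmic reticulum. It had 969, 1037 and 1132 normalized counts in libraries labelled FOXD1null, against 709.8, 706 and 717 in 786-O (log2 fold change 0.55 ± 0.08 (SE), adjusted p = 0.00136). The 786-O libraries were almost level and all libraries labelled FOXD1null lay above them. Its paralog INSIG1, itself a sensitive SREBP target, had 12738, 10259 and 9859 in libraries labelled FOXD1null, against 12970.3, 13670.4 and 13154 in 786-O (log2 fold change -0.29 ± 0.10 (SE), adjusted p = 0.0549). All 3 libraries labelled FOXD1null were below the 786-O libraries, replicate 1 only just, and INSIG1 did not pass the test. Per kilobase of exon, INSIG1 remained the more abundant of the pair, at 3001 in FOXD1null and 3634 in 786-O, with INSIG2 at 265 in FOXD1null and 180.0 in 786-O.

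SREBF1 (chr17:17810399-17837002) had 4109, 3985 and 3847 normalized counts in libraries labelled FOXD1null, against 5184, 4914 and 4768 in 786-O (log2 fold change -0.32 ± 0.06 (SE), adjusted p = 0.00626). The groups did not overlap. It shares 556 bases of exon with RAI1 on the opposite strand, which was lower as well (-0.58). SREBF2 had 7993, 10301 and 9510.2 in libraries labelled FOXD1null, against 9274, 8806 and 8946 in 786-O (log2 fold change 0.033 ± 0.09 (SE), adjusted p = 0.821). Replicate 1 was below every 786-O library and replicates 2 and 3 were above them, so the line had no common direction. SCAP, the escort protein, had 2915, 2765 and 2593 in libraries labelled FOXD1null, against 3161, 2948 and 3148 in 786-O (log2 fold change -0.16 ± 0.07 (SE), adjusted p = 0.11). Its libraries labelled FOXD1null all lay below the 786-O ones, by a margin that did not pass the test. STARD4, a carrier of sterols between membranes, had 1993, 2421 and 2593 in libraries labelled FOXD1null, against 2146, 2227 and 2206 in 786-O, and was not called (0.082, adjusted p = 0.569), with replicate 1 below the 786-O libraries and the other two above.

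Of the 14 fatty acid genes, 4 were higher in libraries labelled FOXD1null (ELOVL1, ELOVL6, FADS3 and ACSL1), 6 were lower (ACLY, ACACA, ACACB, FASN, SCD and LPIN1) and 4 were not called. The share called was 71.4%, against 33.4% of all genes tested, and the log2 fold changes of the 14 had a median of -0.088. The genes that make and first desaturate palmitate were lower by similar amounts with all libraries. Without FOXD1null replicate 1 their log2 fold changes were -0.21 for SCD, -0.29 for ACACA, -0.31 for ACLY and -0.38 for FASN. ACLY, which cleaves citrate to acetyl-CoA (chr17:41866917-41930542), had 16591, 17258 and 16362 normalized counts in libraries labelled FOXD1null, against 21270.0, 20267 and 21035 in 786-O (log2 fold change -0.32 ± 0.06 (SE), adjusted p = 0.00429). ACACA, the cytosolic acetyl-CoA carboxylase (chr17:37084992-37406836), had 4519, 5374 and 5134 in libraries labelled FOXD1null, against 6491, 6133 and 6596 in 786-O (log2 fold change -0.36 ± 0.08 (SE), adjusted p = 0.00925). All libraries labelled FOXD1null lay below all 786-O libraries for both. FASN, fatty acid synthase (chr17:82078338-82098294), had 19355, 18908 and 17262 in libraries labelled FOXD1null, against 24438, 22792 and 23382 in 786-O (log2 fold change -0.35 ± 0.07 (SE), adjusted p = 0.0056). SCD, the delta-9 desaturase (chr10:100347233-100364826), had 20704, 27673 and 26581 in libraries labelled FOXD1null, against 32066, 31194 and 30622 in 786-O (log2 fold change -0.34 ± 0.11 (SE), adjusted p = 0.0428), where FOXD1null replicate 1 was the lowest. In each of the 4 the groups did not overlap, and the mean in libraries labelled FOXD1null was between 78.2% and 80.2% of that in 786-O. LPIN1, a phosphatidate phosphatase and coregulator, had 2487, 2483 and 2378 in libraries labelled FOXD1null, against 3041, 2959 and 2924 in 786-O (log2 fold change -0.28 ± 0.06 (SE), adjusted p = 0.00822), again with no overlap.

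ACACB, the acetyl-CoA carboxylase of the mitochondrial surface, whose product restrains fatty acid oxidation (chr12:109116587-109268226), had 52.8, 21.2 and 14.6 in libraries labelled FOXD1null, against 179.7, 153 and 167 in 786-O (log2 fold change -2.66 ± 0.40 (SE), adjusted p = 0.00163). The mean in libraries labelled FOXD1null was 17.7% of that in 786-O, the lowest share of the 38. Its FOXD1null replicate 1 lay between the other libraries labelled FOXD1null and 786-O. At 2.04 in FOXD1null and 11.5 in 786-O per kilobase of exon it was also the least abundant member, with ACACA at 385 in FOXD1null and 492 in 786-O.

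The members that lengthen and activate fatty acids were higher or not called. ACSL1, a long-chain acyl-CoA synthetase (chr4:184755595-184826818), had 3387, 3928 and 3779.6 normalized counts in libraries labelled FOXD1null, against 1367, 1449.6 and 1524 in 786-O (log2 fold change 1.35 ± 0.08 (SE), adjusted p = 3.22e-05). The FOXD1null mean was 2.56 times that of 786-O, with the groups far apart. ELOVL6, which extends palmitate to stearate (chr4:110045846-110199199), had 3528, 4213 and 4046 in libraries labelled FOXD1null, against 2429.6, 2608 and 2397 in 786-O (log2 fold change 0.66 ± 0.08 (SE), adjusted p = 0.000682). Both genes had replicate 1 as the lowest library labelled FOXD1null, still above every 786-O library. ELOVL1, which extends saturated chains to very long ones, had 5756, 5318 and 5127 in libraries labelled FOXD1null, against 4311, 3964 and 4287 in 786-O (log2 fold change 0.37 ± 0.07 (SE), adjusted p = 0.00514). FADS3, a sphingoid base desaturase, had 3156, 2930.5 and 2772 in libraries labelled FOXD1null, against 2276, 2019 and 2116 in 786-O (log2 fold change 0.47 ± 0.08 (SE), adjusted p = 0.00257). Neither overlapped, and replicate 1 was the highest in both. ACSL3, the synthetase of lipid droplets and the endoplasmic reticulum, averaged 8592 ± 428 in the FOXD1null libraries and 8591 ± 208 in the 786-O libraries (SD, n = 3 each), and its interval ran from -0.15 to 0.14 on the log2 scale.

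For polyunsaturated fatty acids, FADS1, the delta-5 desaturase, had 7395, 8248 and 7969 in libraries labelled FOXD1null, against 8933, 8836 and 8854 in 786-O (log2 fold change -0.17 ± 0.06 (SE), adjusted p = 0.0656). FADS2, the delta-6 desaturase, had 17479, 18827 and 17392 in libraries labelled FOXD1null, against 16822, 15749 and 15852 in 786-O (log2 fold change 0.15 ± 0.06 (SE), adjusted p = 0.11). ELOVL5, which extends their products, differed by 0.049, adjusted p = 0.566, on the log2 scale. None was called. FADS1 was lower and FADS2 higher in all 3 libraries labelled FOXD1null, and the genes share 490 bases of exon on opposite strands.

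Set side by side, the summed normalized count of the sterol enzymes was 71388, 64830 and 64562 in libraries labelled FOXD1null, against 65448, 66034 and 65050 in 786-O, or 102.2% of the 786-O mean. Replicate 1 was above all other libraries and replicates 2 and 3 were just below. The fatty acid genes summed to 122019, 133914 and 127713 in libraries labelled FOXD1null, against 141389, 136252 and 138110 in 786-O (92.3%), with every library labelled FOXD1null lower and replicate 1 the lowest. The regulators summed to 30717, 30768 and 29534 in libraries labelled FOXD1null, against 33445, 33271 and 32938 in 786-O (91.3%). These sums weigh abundant genes most, with SCD and FASN leading the fatty acid sum. The normalized counts of all genes summed to 3.704e+07, 3.699e+07 and 3.634e+07 in libraries labelled FOXD1null. In 786-O they summed to 3.458e+07, 3.421e+07 and 3.481e+07, each below every library labelled FOXD1null. The percentages of the branch sums are therefore not shares of the library total, and as such shares all 3 branches would stand lower in FOXD1null.

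FOXD1null replicate 1 touches many of these values. It was the highest library labelled FOXD1null for 14 of 18 sterol enzymes, 3 of 6 regulators and 5 of 14 fatty acid genes, while it was highest for 44.6% of all genes tested. In 18 of the 38 genes it lay between the 786-O mean and the mean of the other 2, as it did in 35.6% of all genes tested. Without it, 31 of the 38 were called, 13 higher and 18 lower, against 55.0% of all genes, and without 786-O replicate 2 as well, 32 were called, against 55.0%. The newly called genes without replicate 1 were IDI1 (-0.43), HSD17B7 (-0.42), EBP (-0.27), INSIG1 (-0.40), SCAP (-0.20) and FADS1 (-0.13), all lower, and FDPS (0.11), FDFT1 (0.13), SREBF2 (0.14), STARD4 (0.19) and FADS2 (0.17), all higher. All 20 genes called with every library were called again without it.

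**Figure D3:**
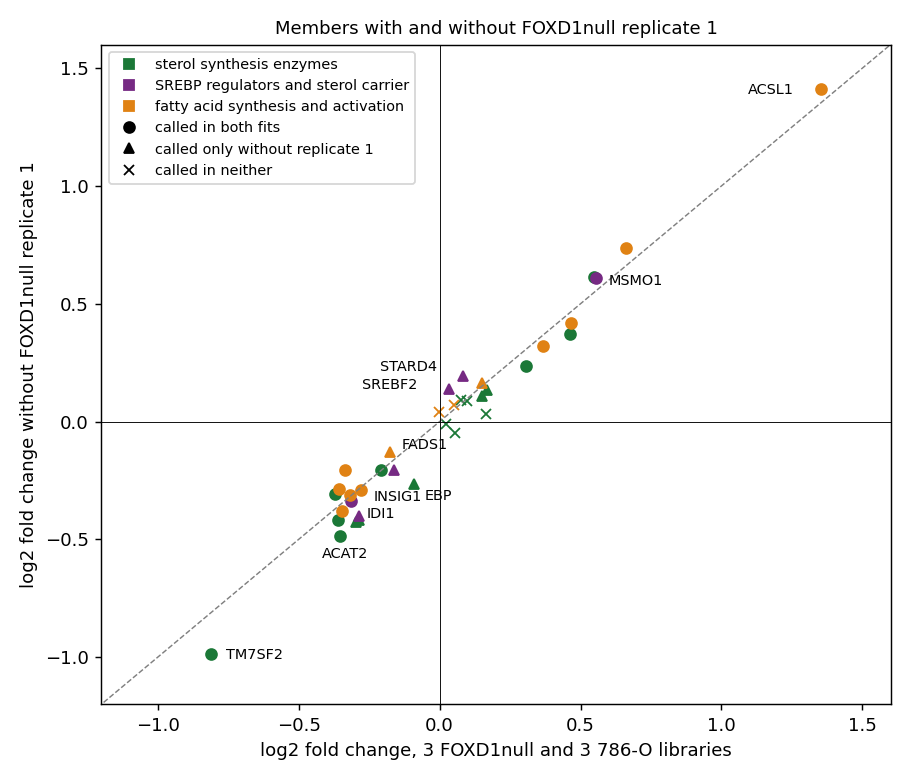
Log2 fold change (FOXD1null over 786-O) of 37 members with all libraries (x axis) and without FOXD1null replicate 1 (y axis), coloured by branch. ACACB, at -2.66 and -3.17, is left out. Triangles are the 11 genes called only without the library, and EBP, at -0.092 and -0.27, lies among the genes farthest from the dashed line of equal values.

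Of the 20 called members, 14 passed under each of the 15 alternatives run, and none turned sign. The 6 that did not lost the call when certain libraries were left out, with adjusted p-values over the 6 fits without 1 library of 5.07e-08 to 0.132 for ACAT2, 0.00122 to 0.0911 for PMVK, 0.00127 to 0.165 for LSS, 0.0023 to 0.0768 for CYP51A1, 2.40e-05 to 0.0526 for ACACA and 0.000115 to 0.14 for SCD. When libraries were rescaled to equal totals, which put the median log2 fold change of all genes at -0.098 in place of -0.0073, the members split into 7 higher and 17 lower, and all genes into 2040 higher and 3873 lower, against 2751 and 2888. PMVK then missed the threshold (0.22, adjusted p = 0.0663), while INSIG1 (-0.38, adjusted p = 0.0165), SCAP, IDI1, HSD17B7 and FADS1 passed it as lower.

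The genes around each member were read as a check on its position. On chromosome 17 the median log2 fold change of 1032 tested genes was -0.34. Within 5 Mb on either side, the median was -0.50 around SREBF1, -0.38 around ACLY and -0.33 around ACACA, beside -0.32, -0.32 and -0.36 for the members themselves. These 3 members were thus no lower than the genes beside them, or nearly so. FASN lies on the same chromosome among 110 genes with a median of -0.020, and was itself at -0.35. The part of the chromosome in these differences was not tested. Off chromosome 17, 8 of 34 members were higher and 8 lower (47.1% called, against 33.4% of all genes tested on any chromosome).

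Elsewhere, members differed from their neighbourhood. ACSL1 was higher by 1.35 among 31 genes with a median of -0.65, and above each of them. ELOVL6 (0.66) was above 97.7% of 43 neighbours with a median of -0.068, and TM7SF2 (-0.81) was above 5.29% of 227 with a median of 0.053. MSMO1 and MVD lie among genes that were slightly higher too, with medians of 0.24 and 0.21.

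**Figure D4:**
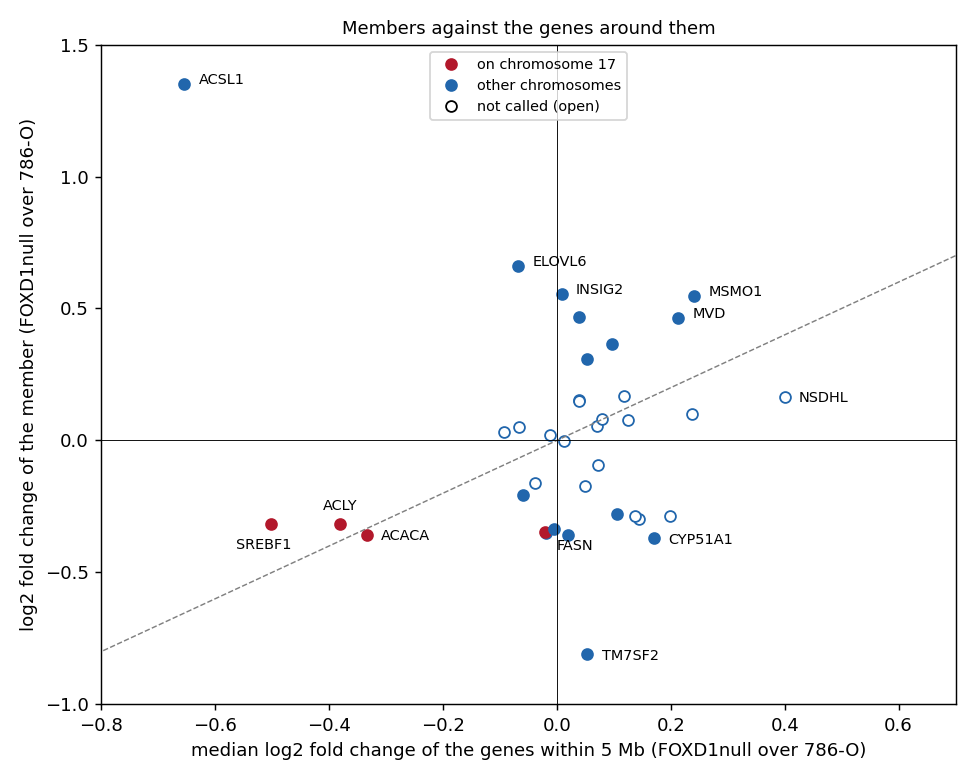
Log2 fold change (FOXD1null over 786-O) of 37 members (y axis) against the median of the tested genes within 5 Mb (x axis). The dashed line marks equal values and open circles are genes not called, and ACACB, at -2.66 with neighbours at 0.072, is left out. SREBF1, ACLY and ACACA on chromosome 17 lie near the dashed line or above it, and ACSL1 lies far above its neighbours.

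Of 59 further genes of these pathways, 52 had a row, 51 were tested, 8 were higher and 11 lower (37.3%, against 33.4% of all genes). Of 11 other sterol synthesis genes 1 was higher and 2 lower, of 20 other regulators and uptake genes 3 were higher and 5 lower, and of 20 other fatty acid genes 4 were higher and 4 lower. Of the genes called that changed by 1 or more on the log2 scale, ACSL5, another long-chain acyl-CoA synthetase, had 188, 193 and 167 normalized counts in libraries labelled FOXD1null, against 63.6, 102 and 53.4 in 786-O (log2 fold change 1.36 ± 0.23 (SE), adjusted p = 0.00258), with no overlap. SCD5, a second delta-9 desaturase of low abundance, had 6.47, 0 and 0 in libraries labelled FOXD1null, against 31.2, 34.5 and 36.8 in 786-O, with adjusted p = 0.0044 by limma. FOXD1null replicate 1 alone among the libraries of that label held reads of it. The fitted fold change of SCD5 depends on the pseudocount and is not given.

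LBR, the other sterol C14-reductase beside TM7SF2, was named after its values were seen and had 4812, 5021 and 5152 in libraries labelled FOXD1null, against 5410.4, 5760.4 and 5399 in 786-O (log2 fold change -0.14 ± 0.06 (SE), adjusted p = 0.11). Its groups did not overlap, and it did not pass the test.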

How the data were processed

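RNA of 786-O FOXD1null and 786-O (3 libraries each, paired reads of 150 bases) was measured. The labels name an mRNA library kit, whereas the study's methods speak of total RNA libraries. Per the submitters' processing notes, Trimmomatic 0.36 trimmed the reads, STAR 2.5.2b placed them on hg38 and featureCounts counted them over exons. The authors deposited a normalized count signal, counts divided by DESeq2 size factors. The sources used here give neither the annotation release nor the strand setting. The deposited log2 fold changes and p-values, which the authors computed with DESeq2 from the same counts, and their means and differences of means were not used. Dividing by the step of each library gave whole reads for 100% of values (tolerance 0.001).

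Genes with a mean of at least 10 were tested (16901 of 16922, and 21 were left out) with limma 3.58.1 (trend) on log2(normalized count + 1), FOXD1null over 786-O, without covariates, with Benjamini-Hochberg adjustment and calls at 0.05. An exact permutation test of 3 against 3 cannot go below p = 0.1 and was not used for calls. The 15 alternatives were edgeR 4.0.16 and DESeq2 1.42.0 on recovered reads, pseudocounts of 0.5 and 5, no filter, a mean of at least 50, equal library totals, a replicate block, each library left out, and 786-O replicate 2 and FOXD1null replicate 1 left out together. The fits were also run on simulated counts, in which few genes were changed and no library was made to stand apart. That run therefore does not measure how often the calls in these data are wrong. Positions, exon lengths and neighbours within 5 Mb came from GENCODE 44, and promoters from RefSeq.

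Values in every library are given for called members that differed by 0.5 or more on the log2 scale and for the main regulators, and for others where the text turns on them, chosen after their values were seen. Further pathway genes were named where they differed by 1 or more, and some of the genes counted are not reported here by name. The members and lists were chosen with earlier results of these data known.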

Additional observations from a re-analysis of the deposited data

How the results depend on the processing

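Over the 15 alternatives no called member turned sign. Leaving out 1 library at a time gave 3621 to 9302 called genes (5639 with all libraries), 4 to 13 sterol enzymes (8), 2 to 6 regulators (2), 8 to 12 fatty acid genes (10) and 11 to 35 further pathway genes (19), while FOXD1 stayed between 1.05 and 1.30 on the log2 scale. The highest counts all came without FOXD1null replicate 1, and without 786-O replicate 1 the counts were 3621 genes and 11 further pathway genes. Leaving out 786-O replicate 2 and FOXD1null replicate 1 together gave 9295 genes, 14 sterol enzymes, 6 regulators and 34 further pathway genes. Equal library totals gave 4 regulators. Uncalled members near 0 changed sign. With equal totals these were MVK (-0.036), SC5D (-0.014), DHCR7 (-0.070), SREBF2 (-0.058), STARD4 (-0.0090) and ELOVL5 (-0.042), and without both libraries MVK (-0.086), DHCR7 (-0.034) and ACSL3 (0.060). Without 1 library, MVK ranged between -0.048 and 0.13, DHCR7 between -0.010 and 0.045, SREBF2 between -0.047 and 0.14, and ACSL3 between -0.022 and 0.041. DESeq2 added FDFT1 (0.0414), INSIG1 (0.0389) and FADS1 (0.0475), as adjusted p-values. Same-numbered libraries of the lines did not deviate together (correlations of -0.255, -0.229 and 0.00524). These are deviations from means of 3 libraries, so they cannot show whether the libraries were prepared in pairs. The replicate block gave 4880 genes, 7 sterol enzymes, 2 regulators, 9 fatty acid genes and 15 further pathway genes, and LSS (0.0953) and SCD (0.058) missed the threshold. The cause of these changes was not tested. SCD5 rests on few reads, with 6.47 normalized counts in FOXD1null replicate 1 and 0 in replicates 2 and 3.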
